A study of Mus musculus with 6 samples.

Results

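Autophagy encloses cytoplasm in a double membrane and delivers it to lysosomes, and the genes described here build that membrane. They are 37 core genes, listed by function at a time when earlier results of these data were known, of the 33924 gene symbols in the authors' deposited comparison of aged with young retinal pigment epithelium (RPE) and choroid. The table held 36 of them under the listed symbol, and Atg101 was found under its older symbol 9430023L20Rik. Of the 37 genes, 35 were tested, which here means that they carry an adjusted p, and Gabarapl1 and Tecpr1 carried a fold change without a p-value.

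The tissue is the pigmented cell layer behind the retina with the vascular layer beneath it. Total RNA came from 3 young and 3 aged C57BL/6J mice, for which the labels name no treatment and no altered allele, and both eyes of a mouse were pooled. The labels give the young mice as 1 to 2 months old, and the aged mice as 20 to 24 months in the titles and 22 to 24 months in the time field. The labels give only males, but the study's methods mention both sexes and an older young group. Ribosomal RNA was removed and poly(A) tails were not selected.

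Autophagy starts when the Ulk1 kinase complex is released from restraint by the nutrient-sensing kinase mTOR. A lipid kinase complex built around Becn1 then marks the site, lipid-transfer proteins enlarge the membrane, and a conjugation system related to ubiquitin ligation attaches the small Atg8 proteins (the LC3 and GABARAP families) to lipid. Receptors tie cargo to the Atg8 proteins, and the closed vesicle fuses with a lysosome. RPE cells take up the shed tips of photoreceptors each day, and part of the same conjugation machinery attaches LC3 to those phagosomes.

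For each gene the table gives baseMean, its normalized count averaged over the 6 libraries, together with a log2 fold change, the standard error (SE) of that change and an adjusted p. Fold changes are given as aged over young, so a positive value is higher in aged mice. The file does not state its sign. It was inferred from how many genes the study counts in each direction, and every direction below depends on it. A gene was taken to differ where the adjusted p was under 0.05. No value per mouse was analysed here, so whether single mice of the groups overlap cannot be given, and the error is the SE alone. Depth per library is unknown here. In RNA from a mixed tissue, fewer cells of a type and less RNA per cell cannot be told apart.

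Of the 35 autophagy genes tested, 5 were higher in aged mice and 0 were lower, which is 14.3%. They were the cargo receptors Sqstm1 and Optn, the Atg8 gene Map1lc3b, the conjugation enzyme Atg7 and the membrane protein Vmp1. Relative to the median of abundant genes, 2 were higher (Sqstm1 and Vmp1) and 1 was lower (Atg16l1). Of all 18636 genes tested, 21.2% differed, 11.3% higher and 9.92% lower. Among the 10880 tested genes with a baseMean of at least 200, the range in which every autophagy gene lay, 22.6% differed, 14.7% higher and 7.86% lower. The autophagy genes thus stood at 14.3% against 14.7% for higher calls and at 14.3% against 22.6% for calls in either direction. Without adjustment for the number of genes, 8 of the 35 passed a p of 0.05 in the authors' DESeq2 test, 7 higher and 1 lower (Atg16l1). Of the 10880 tested genes with a baseMean of at least 200, 3682 passed the same p, 2396 higher and 1286 lower.

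The changes were small. The 35 log2 fold changes ran from −0.37 to 0.60 with a median of 0.10, against −0.01 over all genes tested and 0.08 over tested genes with a baseMean of at least 200. The value was above 0 for 28 of the 35, and for 23 after every fold change was taken relative to the median of abundant genes, a shift of 0.06 that left a median of 0.03. Of the 10880 tested genes with a baseMean of at least 200, 6638 were above 0, and 5686 relative to the median of abundant genes. The median SE of the 35 autophagy genes was 0.14. At their own SE, the smallest absolute log2 fold change that could pass the threshold ran from 0.28 for Ulk2 to 0.52 for Atg9a. For the 30 genes that did not pass, the 95% intervals reached from −0.68 to 0.69, all within 1 of 0 on the log2 scale and 23 within 0.5. The plot of log2 fold changes by role shows these intervals gene by gene.

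**Figure D1:**
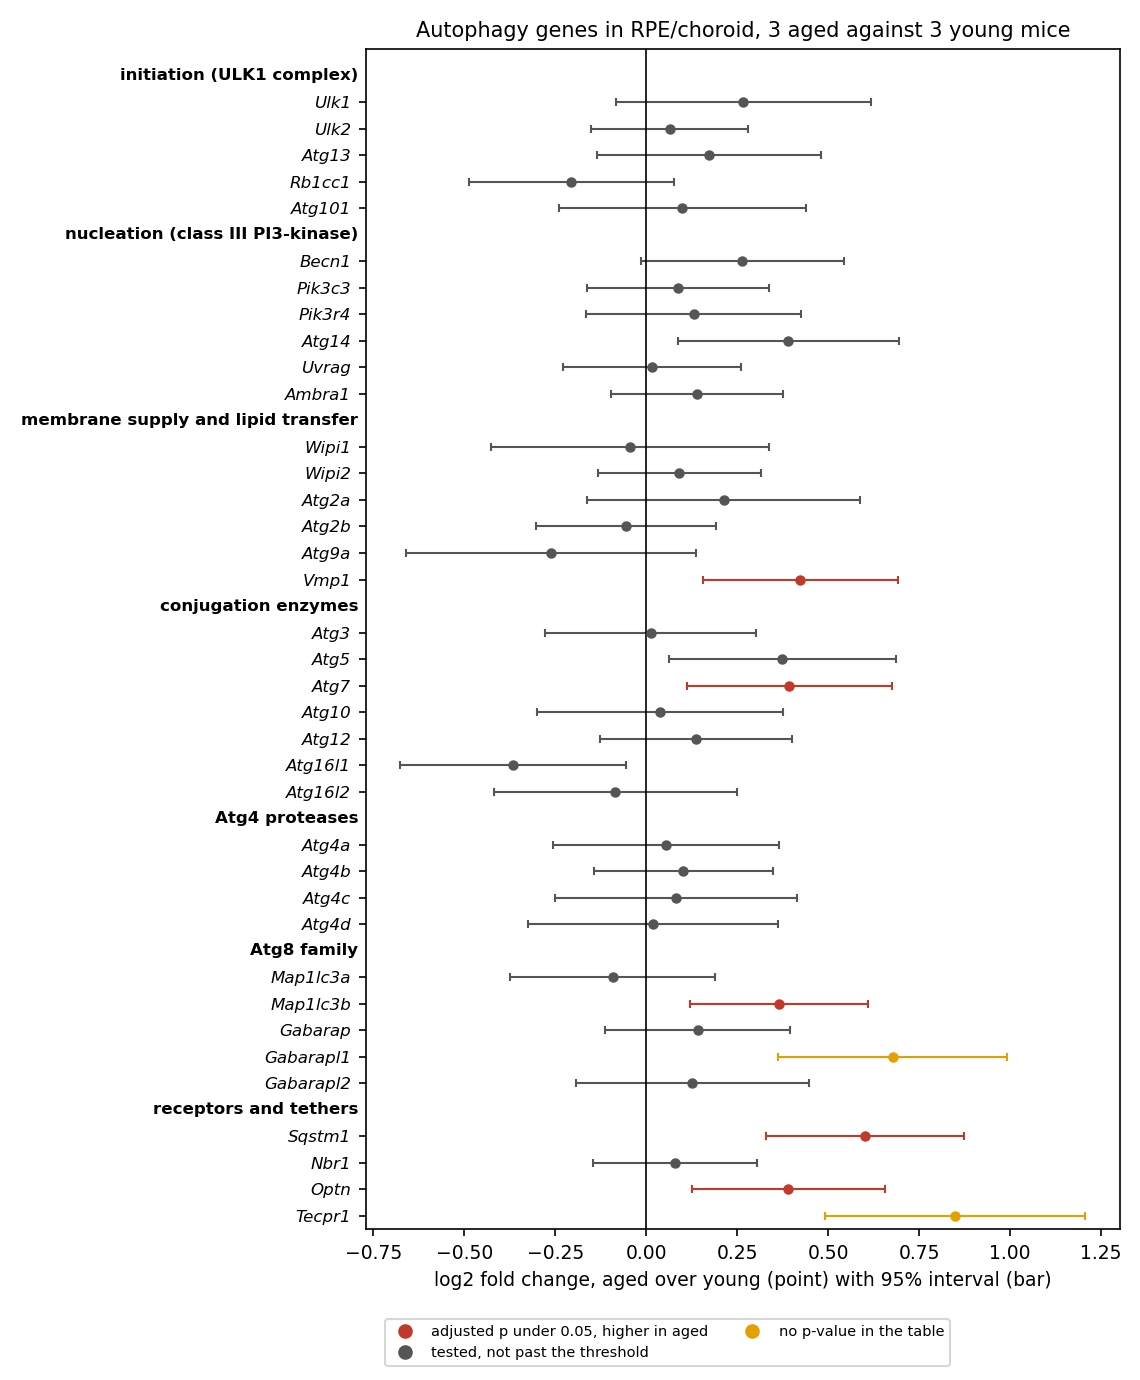
Log2 fold change of each of the 37 autophagy genes, aged over young (horizontal axis), with bars for the 95% interval from the deposited SE, grouped by role. The 5 genes past the threshold lie between 0.36 and 0.60, and the genes with an empty p-value, Gabarapl1 and Tecpr1, lie at 0.68 and 0.85.

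Among the cargo receptors and tethers, 2 of 3 genes tested were higher. Sqstm1, which binds ubiquitinated cargo and LC3 and is itself degraded by autophagy, lies on chromosome 11 (chr11:50200152-50210820, GRCm38) and had a baseMean of 10237, the highest of the 37. It was 1.52-fold higher in aged mice (95% interval 1.26 to 1.83; log2 fold change 0.60, SE 0.14, adjusted p 0.00022). Among the 5 calls, it alone held at an adjusted p under 0.01. Exons annotated on the opposite strand, those of Mrnip, overlap 17.3% of the exon bases of Sqstm1, and whether the authors' counting used strand is not stated.

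Optn, a receptor for mitochondria and bacteria (chr2:5020521-5064399), was 1.31-fold higher at a baseMean of 2517 (95% interval 1.09 to 1.58; log2 fold change 0.39, SE 0.14, adjusted p 0.0231). This call was lost relative to the median of abundant genes (adjusted p 0.0674). Nbr1, a receptor that works together with Sqstm1, did not pass at a baseMean of 5411 (log2 fold change 0.08, SE 0.12, adjusted p 0.687). Its interval, −0.15 to 0.31, did not reach the fold change of Sqstm1, although the difference between these genes was not tested.

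Tecpr1, a tether that binds the Atg5 and Atg12 conjugate on vesicles, had the largest fold change of the 37 genes (chr5:144194442-144223615). Its log2 fold change was 0.85 (SE 0.18, 95% interval 0.49 to 1.21) at a baseMean of 4526, a fold of 1.80. Its p-value is empty in the table, as for 0.6% of all genes with a fold change. DESeq2, the tool used by the authors, leaves it empty where a single library is extreme, and which library that was cannot be read from the table. With a Wald p formed from its fold change and SE, an alternative chosen after the values had been seen, Tecpr1 would pass (adjusted p 6.01e-05). How much a single mouse weighs in this value was not tested.

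The Atg8 family, whose members coat the forming membrane once joined to lipid, was uneven. Map1lc3b (LC3B, chr8:121590438-121598760) was 1.29-fold higher at a baseMean of 1921 (95% interval 1.09 to 1.53; log2 fold change 0.36, SE 0.12, adjusted p 0.0215), a call lost relative to the median of abundant genes (adjusted p 0.0689). Map1lc3a (LC3A) did not pass, with a log2 fold change of −0.09 (95% interval −0.37 to 0.19, adjusted p 0.708). Neither did Gabarap (0.14, adjusted p 0.482) nor Gabarapl2 (0.13, adjusted p 0.638). Whether Map1lc3a and Map1lc3b changed differently was not tested.

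Gabarapl1, the member with the highest mean count of the family (baseMean 5352, chr6:129533192-129542331), had a log2 fold change of 0.68 (SE 0.16, 95% interval 0.36 to 0.99), a fold of 1.60. It carried no p-value, for the same reason as Tecpr1, and the Wald p formed from its fold change and SE would pass (adjusted p 0.000346). Exons of 1700101I11Rik on the opposite strand overlap 28.3% of its exon bases, and that gene was listed at a baseMean of 16.1 and stood at −0.15 on the log2 scale, without passing. Reads can also be shared with near copies. Of the 31-base words in the transcripts of Map1lc3b, 0.922 were found in no other gene, against 0.848 for Gabarapl2 and 1.0 for Gabarapl1.

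Levels of different genes can be set side by side only per length. On the scale of baseMean per kb of the longest coding transcript, the Atg8 genes ranked Gabarapl1 (2941), Gabarap (2505.5), Map1lc3a (1957), Map1lc3b (730) and Gabarapl2 (425), and the order was the same with the median transcript length. Sqstm1 was the highest of the 37 on this scale at 3830, ahead of Gabarapl1, whereas Gabarapl1 (7428) was ahead of Sqstm1 (6198) when the median length was used. The lowest levels were those of Atg16l2 (37.3) and Atg4d (52.4). With the longest transcript, the receptors and the Atg8 genes other than Gabarapl2 stood above all genes of the earlier steps, as the plot of level per length shows, whereas with the median length Rb1cc1 ranked 3 and Atg4b 5 of the 37. No spread over mice can be given for these levels.

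**Figure D2:**
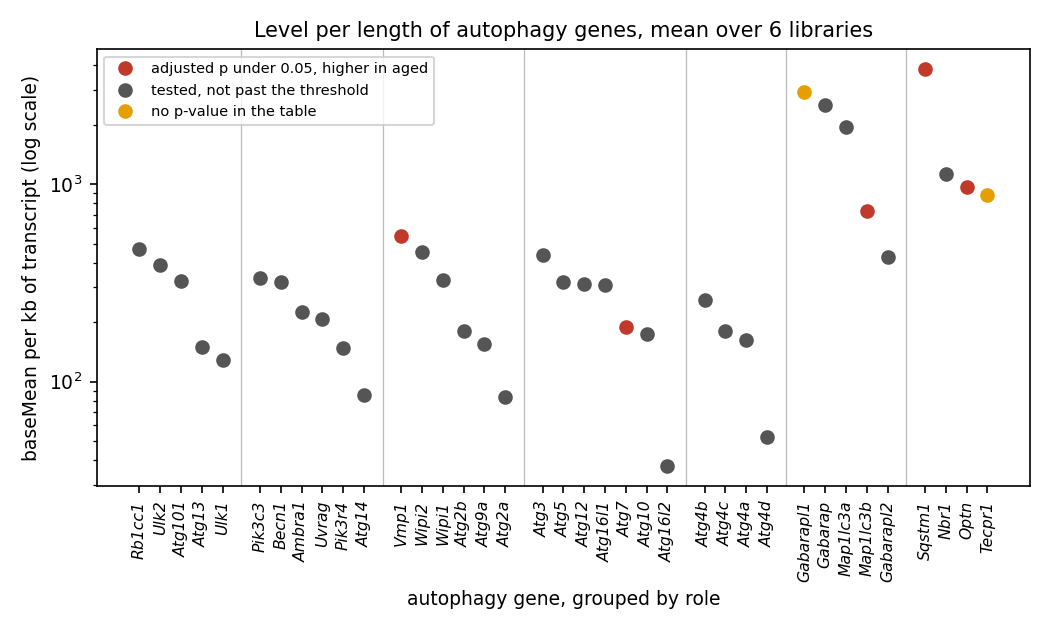
Level of each autophagy gene, as baseMean per kb of the longest coding transcript (vertical log scale), grouped by role and ordered by level within a role; each point is 1 mean over the 6 libraries. Sqstm1 (3830) and Gabarapl1 (2941) stand highest and Atg16l2 (37.3) lowest.

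The conjugation enzymes gave 1 call among 7 genes. Atg7, the activating enzyme that serves both the Atg12 and the Atg8 conjugation reactions (chr6:114643127-114860604), was 1.31-fold higher at a baseMean of 738 (95% interval 1.08 to 1.60; log2 fold change 0.39, SE 0.14, adjusted p 0.0333). The call was lost relative to the median of abundant genes (adjusted p 0.0863). Atg5, which is joined to Atg12, had a similar log2 fold change of 0.37 with an SE of 0.16 and did not pass (adjusted p 0.0766).

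Atg16l1, the scaffold that brings the Atg5 and Atg12 conjugate to membranes, was the lowest of the 37 in fold change. The value was −0.37 on the log2 scale (SE 0.16, adjusted p 0.0839), and relative to the median of abundant genes it was −0.43 and passed (adjusted p 0.0351). Its partner Atg12, with the highest baseMean of the group (1478, not a level per length), stood at 0.14 (adjusted p 0.518). The transferring enzymes Atg3 (0.01) and Atg10 (0.04) and the Atg16l1 paralogue Atg16l2 (−0.08) had log2 fold changes near 0, with intervals that held 0.

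Promoters were read for what these genes share in sequence. RefSeq promoters (GRCm38.p6, 250 bases before to 50 after a start) were found for 31 of the 37 genes, but not for Pik3c3, Map1lc3a, Rb1cc1, Becn1, Atg12 and Atg16l1. They were searched for CACGTG, the E-box letters to which Tfeb and its relatives are known to bind and which read the same on both strands. It stood in the promoters of 4 of the 31 genes, Atg7, Atg5, Atg14 and Atg3. Of all 32851 promoters 7.15% held it, and 7.84% of those of coding genes. These are shares of promoters and not of genes, and the 31 genes had 36 promoters. The windows of all 4 are printed to show where the letters lie, and of these genes Atg7 alone passed the threshold. Each reads 5′ to 3′ on the strand of the gene, with CACGTG in capitals.
Atg7 chr6:114670949-114670984 (+): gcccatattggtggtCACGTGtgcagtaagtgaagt
Atg5 chr10:44268310-44268345 (+): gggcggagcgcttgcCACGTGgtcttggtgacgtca
Atg14 chr14:47568415-47568450 (−): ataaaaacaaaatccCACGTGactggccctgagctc
Atg3 chr16:45158720-45158778 (+): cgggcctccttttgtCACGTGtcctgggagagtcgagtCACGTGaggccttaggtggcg

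The E-box starts 132 bases before the start in Atg7, 14 in Atg5, 1 in Atg14, and 94 and 71 in Atg3. The Atg7 start read here lies inside the gene, far downstream of the first base of its span. Its promoter window covers chr6:114670846-114671145, while the span of the gene begins at chr6:114643127. The longer palindrome TCACGTGA stood only in the promoter of Atg3, at its second E-box, among the 31 genes. It stood in 0.974% of all promoters and 1.23% of those of coding genes. The letters TGACNNNGC, the core to which Nfe2l2 is known to bind, stood on either strand of the promoters of Atg13, Map1lc3b, Ulk2 and Vmp1. They stood in 12.4% of all promoters and 13.0% of those of coding genes. A match describes these letters in this window and not binding. Of the 5 genes that were higher with age, Atg7 held CACGTG, at the start inside the gene. Map1lc3b and Vmp1 held TGACNNNGC, and Sqstm1 and Optn held none of these letters in the windows read.

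Among the genes of membrane supply and lipid transfer, 1 of 6 passed. Vmp1, a membrane protein of the endoplasmic reticulum that moves lipid between the leaflets of the bilayer (chr11:86583858-86683836), was 1.34-fold higher at a baseMean of 1527 (95% interval 1.11 to 1.61; log2 fold change 0.42, SE 0.14, adjusted p 0.0132). It kept its call relative to the median of abundant genes, as did Sqstm1. The microRNA gene Mir21a lies on the same strand within 2.38% of the exon bases of Vmp1.

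The other genes of that group did not pass. Wipi2, which reads the lipid mark made by the Becn1 complex, had the highest baseMean of the group (2343), and its log2 fold change was 0.09 (adjusted p 0.629). The lipid-transfer proteins Atg2a (0.21) and Atg2b (−0.05), the second lipid reader Wipi1 (−0.04) and the lipid scramblase Atg9a (−0.26, adjusted p 0.390) ranged on both sides of 0. For Atg9a, 0.68 of the 31-base words were in no other gene, because Gm29253 is annotated over 31.8% of its exon bases on the same strand.

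None of the 6 lipid kinase genes passed, although each had a positive fold change, from 0.02 to 0.39. Atg14, the subunit that directs the kinase to autophagy, was the nearest, at 0.39 on the log2 scale (SE 0.16, adjusted p 0.0544). Optn, with the same fold change and a smaller SE, passed. Becn1, the scaffold, with the highest baseMean of the group (1387), stood at 0.26 (95% interval −0.01 to 0.54, adjusted p 0.180), and exons of Cntd1 on the opposite strand overlap 43.9% of its exon bases.

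The catalytic subunit Pik3c3 (0.09), its regulatory partner Pik3r4 (0.13) and the regulator Ambra1 (0.14) had small positive log2 fold changes with intervals that held 0. Uvrag, the subunit of the endosomal form of the kinase, stood at 0.02, and at −0.05 relative to the median of abundant genes.

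None of the 5 genes of the initiating kinase complex passed. Rb1cc1, the large scaffold of the complex, had the highest baseMean of the group (3554) and stood at −0.21 on the log2 scale (SE 0.14, adjusted p 0.327). The kinases Ulk1 (0.27, adjusted p 0.302) and Ulk2 (0.07, adjusted p 0.733) and the adaptors Atg13 (0.17) and Atg101 (0.10) were above 0, with intervals that held 0.

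The 4 Atg4 proteases, which trim Atg8 proteins before conjugation and release them from lipid afterwards, lay closest together. Atg4b, with the highest baseMean of the group (1075), had a log2 fold change of 0.10 (adjusted p 0.618), Atg4a 0.05, Atg4c 0.08 and Atg4d 0.02. No interval in this group reached 0.5 in either direction. Of the words in Atg4a transcripts only 0.392 were in no other gene, the rest being shared mainly with the copy Atg4a-ps.

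Most autophagy genes had a higher baseMean than the median gene tested, the exceptions being Atg16l2, Atg10 and Atg4d. These are mean counts and not levels per length. The lowest baseMean was 240.7 (Atg16l2), at the percentile 44.74, and the median lay at the percentile 77.24. The fold changes of the autophagy genes tested had an SD of 0.20. The plot of fold change against baseMean places them within the cloud of all genes.

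**Figure D3:**
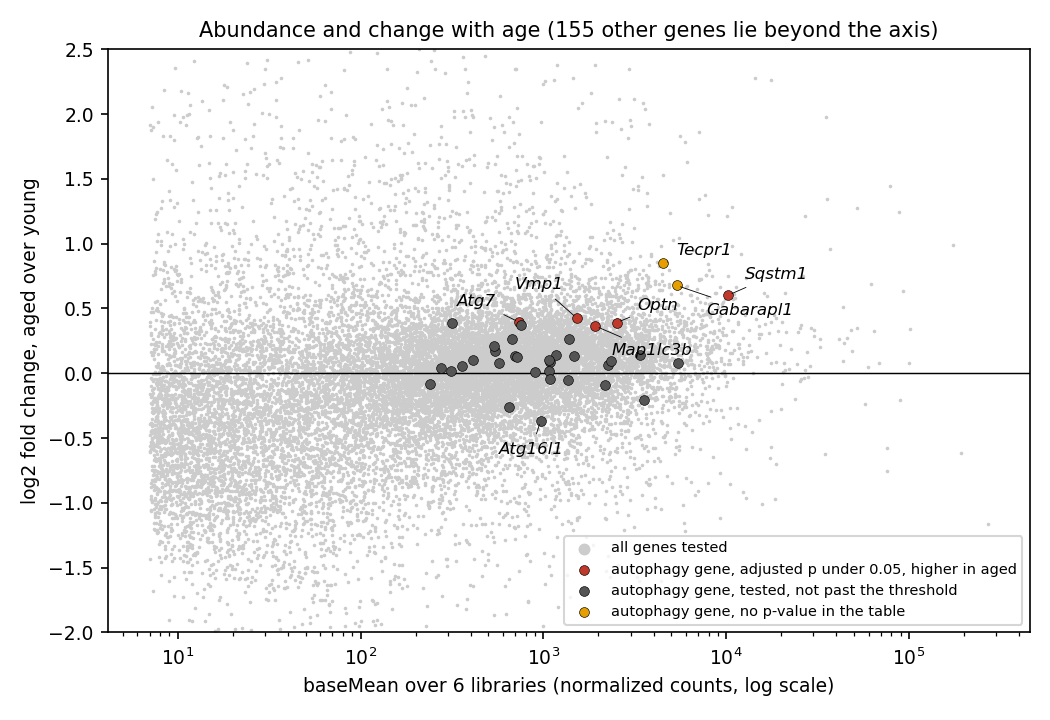
Log2 fold change, aged over young, against baseMean (log scale) for all genes tested (grey) and the 37 autophagy genes (coloured by call). Sqstm1, Gabarapl1 and Tecpr1 stand at the upper right, and 155 other genes lie beyond the vertical axis, which runs from −2.0 to 2.5.

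Genes that act on either side of this machinery were read from a further list of 69, of which 68 were tested. In it 21 were higher and 1 was lower, 32.4%, and without the phagocyte oxidase genes 16 of 63 were higher and 1 lower, 27.0%. Over all genes tested, 21.2% differed and 11.3% were higher, and of those with a baseMean of at least 200, 22.6% differed and 14.7% were higher. Without the oxidase genes, the list stood at 25.4% for higher calls and 27.0% for calls in either direction. The fold changes below were compared with those of the core genes side by side, and the difference between the lists was not tested.

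Of 13 genes for fusion of the vesicle with lysosomes, 7 were higher and 0 lower, and all 13 fold changes were positive, with a median of 0.43 (12 of 13 relative to the median of abundant genes, where Stx17 was at −0.02). Of the 10880 tested genes with a baseMean of at least 200, 14.7% were called higher. Their fold change was positive for 6638, and for 5686 relative to the median of abundant genes. Plekhm1, an adaptor of late endosomes, stood at 0.76 on the log2 scale (SE 0.17, adjusted p 0.00012). Vps18 (0.74, SE 0.19, adjusted p 0.000995), Vps33a (0.52, SE 0.12, adjusted p 0.000158) and Vps11 (0.44, SE 0.12, adjusted p 0.00347) encode core subunits of the HOPS tether. The other HOPS genes on the list did not pass, namely Vps16 (0.30, adjusted p 0.0919), Vps39 (0.21, adjusted p 0.267) and Vps41 (0.17, adjusted p 0.286).

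The late endosomal GTPase Rab7 stood at 0.47 (SE 0.14, adjusted p 0.00627). The fusion proteins Vamp8 (0.45, SE 0.17, adjusted p 0.0412) and Snap29 (0.43, SE 0.15, adjusted p 0.0248) passed by less, and both calls were lost relative to the median of abundant genes. These proteins also serve endosomes and phagosomes.

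Of 19 further receptors and their regulators, 5 were higher, or 26.3%. Of all genes tested 11.3% were higher, and of those with a baseMean of at least 200, 14.7%. Pink1, the kinase that marks damaged mitochondria, stood at 0.65 on the log2 scale (SE 0.15, adjusted p 0.000309). The mitochondrial receptors Bnip3 (0.42, SE 0.12, adjusted p 0.00597) and Bnip3l (0.33, SE 0.12, adjusted p 0.0277), the endoplasmic reticulum receptor Retreg1 (0.47, SE 0.12, adjusted p 0.000734) and the ubiquitin receptor Tax1bp1 (0.35, SE 0.11, adjusted p 0.0138) were the others. The calls of Bnip3l and Tax1bp1 were lost relative to the median of abundant genes.

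Upstream of the Ulk1 complex, 2 of 16 genes were higher, or 12.5%, against 14.7% of tested genes with a baseMean of at least 200. Deptor, which binds and restrains mTOR, stood at 1.05 on the log2 scale (SE 0.17, adjusted p 2.93e-08), and Rragc, a GTPase that brings mTOR to the lysosome, had 0.93 (SE 0.13, adjusted p 3.54e-11). Mtor itself (0.22, adjusted p 0.236) and the catalytic subunits of the energy-sensing kinase AMPK, Prkaa1 (0.10, adjusted p 0.609) and Prkaa2 (−0.22, adjusted p 0.339), did not pass.

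Among 6 transcription factors tested, Tfec, a relative of Mitf and Tfeb, was higher (log2 fold change 1.42, SE 0.30, adjusted p 3.67e-05) at a baseMean of 74.4. Zkscan3, described as a repressor of autophagy genes, was lower (−0.56, SE 0.16, adjusted p 0.00443). Tfeb, the main activator of lysosomal and autophagy genes, did not pass (0.10, SE 0.15, adjusted p 0.669), and Mitf carried no p-value (−0.22, SE 0.12). Of 9 further core genes, 1 was higher, Bcl2, which binds Becn1 (0.66, SE 0.12, adjusted p 8.11e-07).

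**Figure D4:**
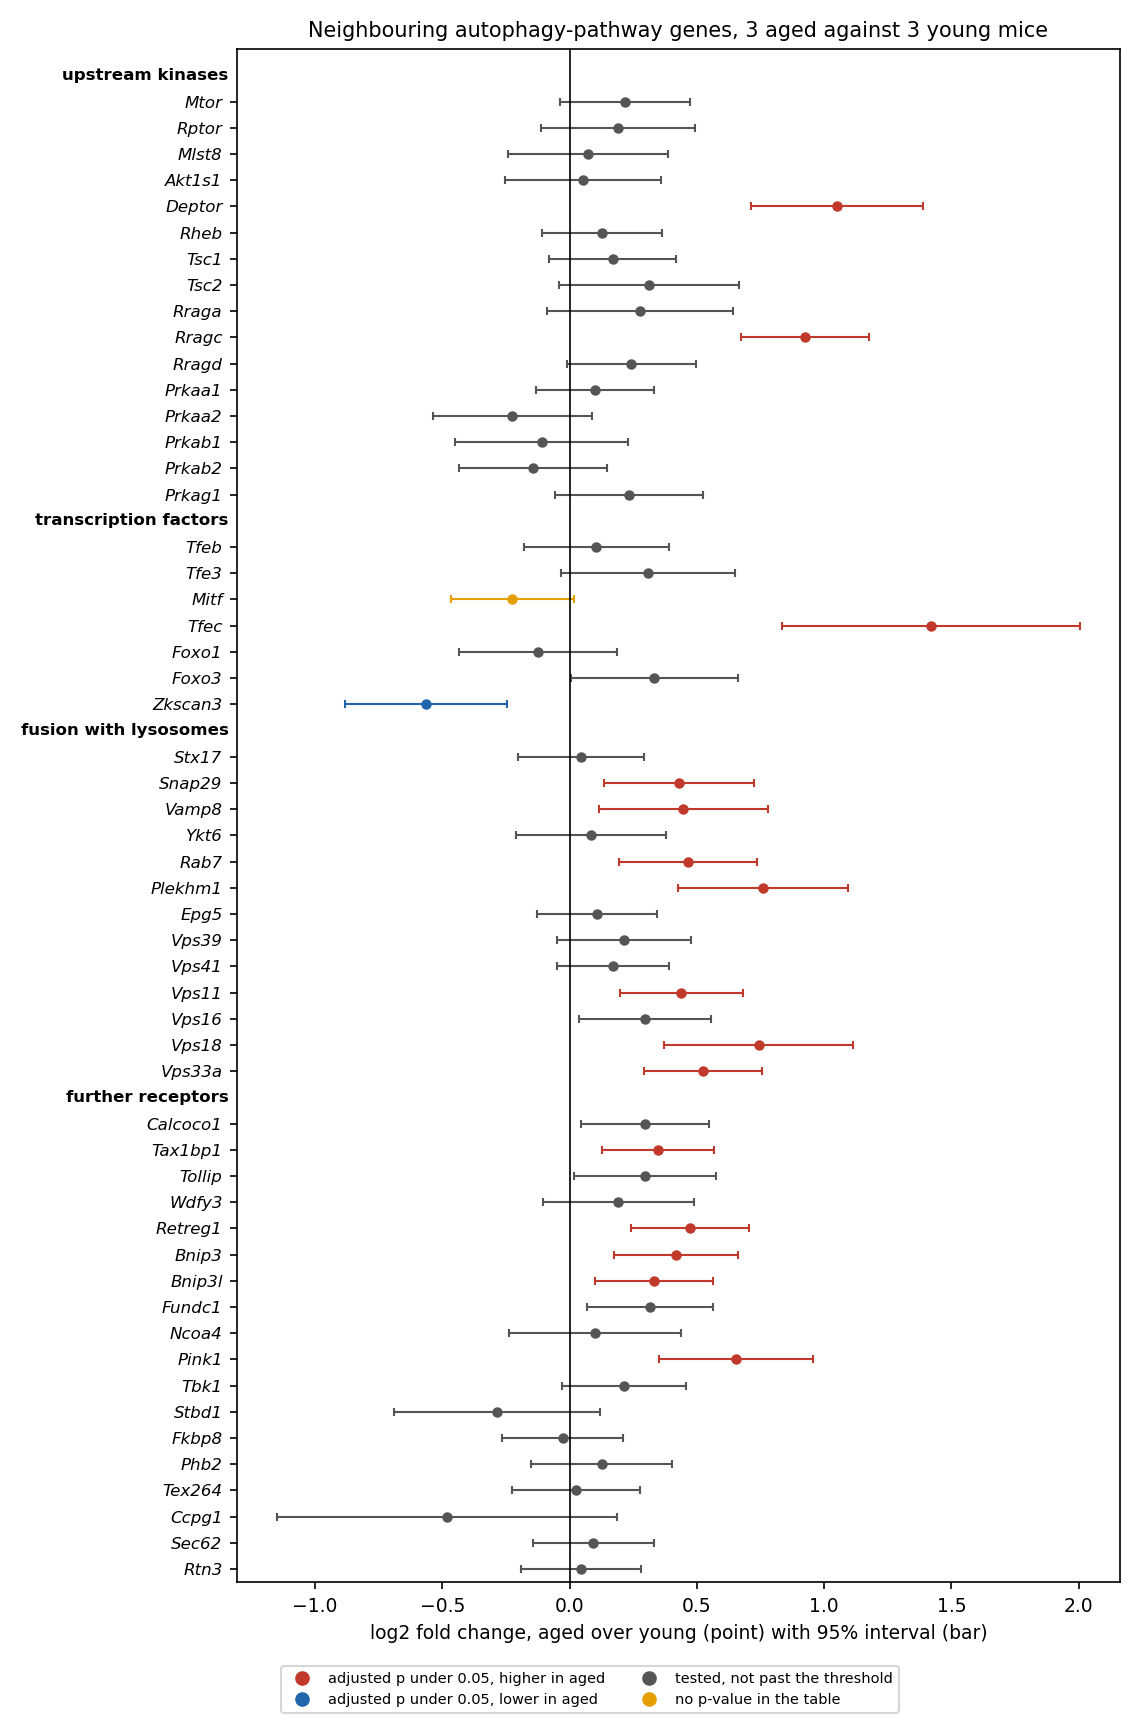
Log2 fold change, aged over young (horizontal axis), with 95% intervals, for upstream kinases and their regulators, transcription factors, genes for fusion with lysosomes and 18 of the 19 further receptors. All 13 fusion genes lie above 0 (12 relative to the median of abundant genes) and 7 passed the threshold, while 2 of 16 upstream genes passed.

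Markers of other cells moved with age in the same libraries. The phagocyte oxidase genes, which are expressed in myeloid cells and feed the attachment of LC3 to phagosomes, were higher in 5 of 5. Cybb, the catalytic subunit, had a log2 fold change of 3.21, and its membrane partner Cyba had 1.86. Of 15 macrophage markers 14 were tested, and 12 were higher and 1 lower (Cd163), with a median of 1.93. T and NK cell markers were higher in 8 of 10 and mast cell markers in 6 of 7. No defining marker of macrophages was at 0, the lowest baseMean being 266.4. Macrophages also express the autophagy, fusion and receptor genes above, and the part of these cells in the fold changes was not tested.

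RPE markers were abundant in these libraries, with baseMean values of 43745 for Rpe65 and 92190 for Rgr. Of 9 tested, 2 were higher, Rgr (0.63) and Best1 (0.68), and the median was 0.30, above that of the autophagy genes. Endothelial markers were present as well, with a baseMean of 6377 for Kdr, and of 9 tested 1 was higher (Vwf) and 1 lower (Tek). Rod genes were present too, with a median baseMean of 7938. Of 10 rod genes 0 passed, and their median SE of 0.40 was larger than that of the autophagy genes. Among fibroblast and matrix genes, 5 of 10 were lower and 2 higher. Melanocyte markers were lower in 2 of 8 (Tyr and Ednrb) and skeletal muscle markers in 3 of 9 (Myh1, Myh2 and Mylpf), with 0 higher in either list. The part of any of these cells in the autophagy values was not tested.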

How the data were processed

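Total RNA of 3 young and 3 aged RPE/choroid samples was read by the authors. Per the methods of the study, reads were trimmed with BBDuk, aligned with STAR to Ensembl release 82 transcripts of GRCm38, quantified with Sailfish, scaled by total count and compared with DESeq2 by the authors. The deposited baseMean is a normalized signal, the mean over 6 libraries. Deposited fold changes and SEs are log2 values. Dividing the first by the second gives the deposited Wald score. The p-value columns, raw and adjusted, are DESeq2 output deposited by the authors.

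The authors' count model was not rerun. The sign was reversed to read aged over young, and 95% intervals were formed from the SE. For values relative to the median of abundant genes, and for genes without a p, Wald p-values were formed from the fold change and SE. These were adjusted anew by Benjamini-Hochberg, as were the deposited p-values under other filters on low genes. Recomputed Wald p-values and Benjamini-Hochberg values lay within 0.449% and 0.572% of the deposited ones. In the table, 7243 genes had a baseMean of 0, 160 a fold change without p, and 7885 a p without adjusted p. The median SE was 0.24 for genes with a baseMean under 2 and 0.43 for tested genes under 30. Shrunken fold changes would give this pattern, which the sources used here do not state.

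All 37 genes were named, with full statistics for those past the threshold and values for those whose fold change was 0.4 or more in size (log2), a p under 0.05 before adjustment or the highest baseMean of a role. From the further list, all genes that differed were named where a group had at most 10 such genes, with Tfeb, Mtor, Prkaa1 and Prkaa2. The members, lists and rules were chosen with earlier results of these data known. Some genes counted in the lists are not reported by name here. Lengths, overlaps and shared words came from GENCODE transcripts, and promoters from RefSeq, both on GRCm38. Scripts ran in Python 3.11.15 with pandas 2.3.3 and SciPy 1.17.1 and were tested on simulated data.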

Additional observations from a re-analysis of the deposited data

How the results depend on the processing

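The count of 5 autophagy genes past the threshold was 5 with no filter on low genes and 5 with a baseMean of at least 30. It was 1 at an adjusted p under 0.01 (Sqstm1). It was 0 when a log2 change of 1 or more in size was asked for besides an adjusted p under 0.05. With a Wald p for genes without one, which was chosen after seeing the data, it was 7. With no adjustment and no limit on size, 8 passed a p of 0.05 in the authors' DESeq2 test. So did 3682 of the 10880 tested genes with a baseMean of at least 200. Relative to the median of genes with a baseMean of at least 100, 3 passed, Sqstm1 and Vmp1 higher and Atg16l1 lower, and small fold changes turned negative for Atg10 (−0.0265), Atg3 (−0.0530), Atg4a (−0.0103), Atg4d (−0.0474) and Uvrag (−0.0495). The 22 calls of the further list became 18 at an adjusted p under 0.01, 7 with a log2 change of 1 or more in size, 21 with no filter (Vamp8 was lost, adjusted p 0.0577) and 18 relative to that median. No paired analysis was possible because only group-level values were analysed, and leaving out each replicate was not run for the same reason. Depth limits are unknown here for that reason too.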
